A study of Mus musculus with 16 samples.

Results

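The genes described here are 9 genes taken as identity genes of CA1 pyramidal neurons, namely Pou3f1, Gpr161, Nov, Man1a, Wfs1, Fibcd1, Mpped1, Lmo4 and Neurod6, although Lmo4 and Neurod6 were not higher in the CA1 libraries. They were chosen by symbol from the 24972 genes listed for each library, and all 9 passed the filter on low values in every comparison. The 16 bulk RNA-seq libraries came from adult ArcCreERT2::eYFPflx mice on a C57BL/6 background, so trained and untrained animals alike carried a Cre recombinase driven by the activity-dependent Arc promoter and a Cre-dependent eYFP reporter. Trained mice learned to avoid a shock zone on a rotating arena in the active place avoidance task, whereas untrained mice met the same arena with the shock never switched on. After a retention test, CA1, CA3 and the dentate gyrus (DG) were microdissected from dorsal hippocampal slices and the pieces of each animal were pooled by subregion. The libraries comprised 3 trained and 3 untrained CA1, 3 trained and 2 untrained CA3, and 3 trained and 2 untrained DG samples, and animals of both sexes were assigned to each condition. Each value is a normalized estimated count, that is, an estimated number of reads scaled between libraries by the authors.

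CA1 pyramidal neurons form the last relay of the trisynaptic hippocampal circuit: they receive the Schaffer collaterals of CA3 pyramidal neurons, which are themselves driven by the mossy fibres of dentate granule cells, and they send the output of the hippocampus to the subiculum and neocortex. Dorsal CA1 pyramidal cells are told apart from their CA3 and DG neighbours by a stable set of transcripts rather than by a sole gene. Some of these, such as Wfs1 and Fibcd1, are sharply bounded at the edge of CA1, while others, such as Neurod6, are shared by pyramidal neurons of several fields.

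Of the members, 3 act in transcription. Pou3f1 encodes a POU-domain transcription factor that binds the octamer motif and is a gene of 1 exon at chr4:124656807-124660655 (GRCm38, plus strand). Lmo4 encodes a LIM-only adaptor that joins transcription factor complexes and lies at chr3:144188530-144205220 on the minus strand. Neurod6 encodes a basic helix-loop-helix transcription factor that binds E-boxes and is a general marker of forebrain excitatory neurons, at chr6:55677822-55681263 on the minus strand. Another 3 members act in signalling. Gpr161, at chr1:165295789-165326745 on the plus strand, encodes an orphan G protein-coupled receptor of the primary cilium that restrains hedgehog signalling. Nov, also named Ccn3, lies at chr15:54745702-54754039 on the plus strand and encodes a secreted matricellular protein. Fibcd1, at chr2:31813290-31846005 on the minus strand, encodes a membrane receptor with a fibrinogen-like domain that binds acetylated sugars. The remaining 3 members encode an enzyme of the Golgi, a protein of the endoplasmic reticulum and a putative phosphoesterase. Man1a, a mannosidase that trims N-glycans, lies at chr10:53904785-54076609 on the minus strand. Wfs1, at chr5:36966104-36989205 on the minus strand, encodes wolframin, a membrane protein of the endoplasmic reticulum that bears on calcium handling and whose loss causes Wolfram syndrome. Mpped1, at chr15:83779467-83858494 on the plus strand, encodes a protein with a metallophosphoesterase domain.

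The promoters of 3 members are shown because the members did not all behave alike: Fibcd1 had the largest difference between trained and untrained CA1, Gpr161 was called higher in CA1 than in CA3 and, less stably, than in DG, and Neurod6 passed the test in neither comparison. Each is the 250 bases before a RefSeq start site in GRCm38.p6, written 5′ to 3′ on the strand of the gene, at chr2:31846006-31846255 for Fibcd1, chr1:165295516-165295765 for Gpr161 and chr6:55681264-55681513 for Neurod6. Capitals mark matches to the E-box CANNTG, searched on both strands, which read the same for this motif.
Fibcd1: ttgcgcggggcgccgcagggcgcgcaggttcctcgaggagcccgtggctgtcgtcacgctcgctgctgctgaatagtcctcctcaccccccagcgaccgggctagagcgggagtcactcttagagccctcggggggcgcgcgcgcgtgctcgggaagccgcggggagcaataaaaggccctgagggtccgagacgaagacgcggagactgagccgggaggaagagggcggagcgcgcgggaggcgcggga
Gpr161: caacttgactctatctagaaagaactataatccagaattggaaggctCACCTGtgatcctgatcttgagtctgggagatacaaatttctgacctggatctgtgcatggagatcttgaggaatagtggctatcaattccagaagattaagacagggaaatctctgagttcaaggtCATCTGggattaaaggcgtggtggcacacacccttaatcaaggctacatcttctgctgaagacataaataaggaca
Neurod6: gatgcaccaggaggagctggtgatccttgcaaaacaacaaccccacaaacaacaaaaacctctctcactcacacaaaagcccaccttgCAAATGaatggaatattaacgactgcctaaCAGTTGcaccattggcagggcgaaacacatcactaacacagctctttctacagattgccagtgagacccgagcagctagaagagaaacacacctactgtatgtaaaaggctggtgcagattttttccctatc
The Fibcd1 window held no E-box, and the Gpr161 and Neurod6 windows held 2 each. Gpr161 has another RefSeq start site, whose window at chr1:165302373-165302622 is not shown and held 1 E-box, 5 CG pairs and 46.8% G or C. Of 32851 promoter windows of the same length in the table, 66.2% held at least 1 E-box, so the motif is common. The octamer ATGCAAAT, on either strand, was in 1.60% of all windows and in none of the 11 windows found for 7 of the 9 members. The windows also differed in base composition. Fibcd1 had 34 CG pairs and 71.6% G or C in its 250 bases, against 1 CG pair and 42.4% for the Gpr161 window shown and 3 CG pairs and 46.0% for Neurod6, with medians of 6 CG pairs and 52.4% over all windows.

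The labels were checked against subregion markers, whose tests come from the same fits as those of the members. Prox1, the transcription factor that defines dentate granule cells, lay between 3052 and 3861 in the CA1 libraries, between 2690 and 4786 in CA3 and between 3292 and 4183 in DG. The ranges overlapped, and so did the summed value of 10 dentate granule markers, at 13005 to 15925 in CA1, 11582 to 19335 in CA3 and 13735 to 16901 in DG. Of these 10 markers, 0 were higher and 1 was lower (Il16) in CA1 than in DG by the limma test described below. Il16 was also lower in CA1 than in CA3 (-0.405, limma adjusted p = 0.00086). It did not differ between CA3 and DG (0.087, limma adjusted p = 0.826). Among 10 CA3 pyramidal markers, 2 were lower in CA1 than in CA3, namely Grik4 and Cpne4, the same 2 were lower in CA1 than in DG (-0.34 and -0.30), and 0 differed between CA3 and DG by limma. Their summed value was 3320 to 5149 in CA1 and 3844 to 7760 in CA3, with 4901 to 6254 in DG. Thus, Il16 apart, the granule cell markers did not set the DG libraries apart from those of CA1, and CA1, CA3 and DG are used here as the labels of the dissected pieces. In a bulk sample, fewer CA1 pyramidal cells in the piece and less RNA of a gene per cell cannot be told apart. The sex-linked transcripts of some libraries also stood apart from the rest of their animals: CA3 untrained replicate 1 had a value of 10587 for Xist, the transcript of the inactive X chromosome, against 26.1 and 25.5 in CA1 and DG of the same animal, and DG trained replicate 3 had a value of 255 for the Y-linked Ddx3y against 101 and 92.9 in CA1 and CA3. CA1 trained replicate 1 had 70.9 for Ddx3y against 12.9 in CA3 and 1.83 in DG of its animal, with Xist at 17310 as in the other trained CA1 libraries. The 101 and 92.9 of trained replicate 3 exceed this 70.9 and the 1.66 to 9.09 of trained replicate 2. Those CA1 and CA3 libraries were left out only together with their animal. The comparisons that used the pair CA3 untrained replicate 1 and DG trained replicate 3 were also run without it. The differences between subregions over all mice and of the training effects were also run without CA1 trained replicate 1. The result is given where a call changed. The reads behind a library, approximated from the spacing of its low values, ranged from 2540000 in CA1 trained replicate 3 to 15120000 in CA3 trained replicate 3.

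**Figure D1:**
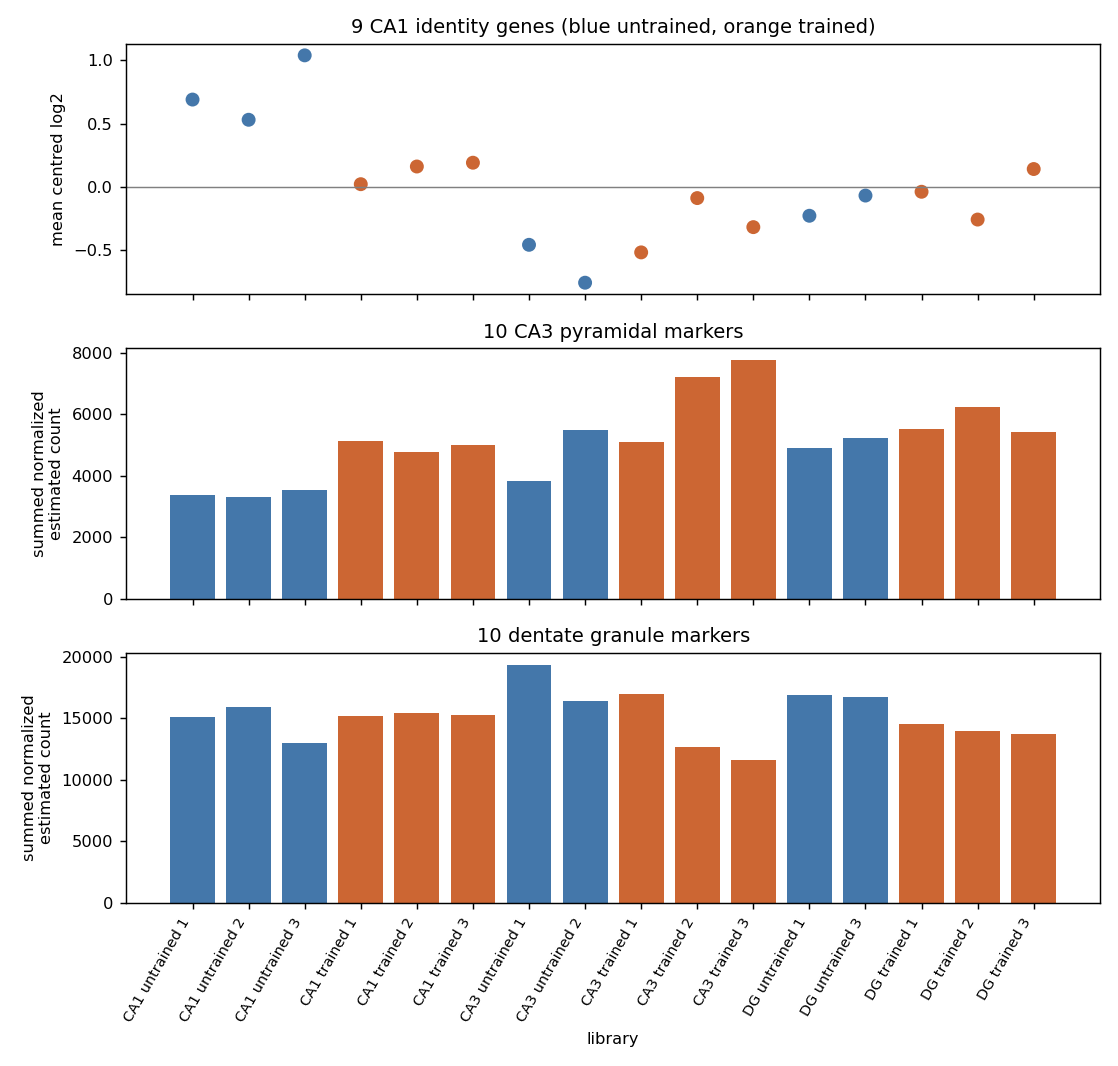
The upper panel plots for each of the 16 libraries the mean over the 9 members of the log2 value centred on the gene's mean, and the lower panels plot the summed normalized estimated counts of 10 CA3 pyramidal and 10 dentate granule markers (bars start at 0, blue untrained, orange trained). The 3 untrained CA1 libraries stand highest in the upper panel, between 0.53 and 1.04, while the dentate granule sums are of like height in all 3 subregions.

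The first comparison asked how far the members were higher in CA1 than in CA3. By limma on log2(value + 2), with all 16 libraries in a fit of 6 groups, 6 of the 9 members were higher in CA1 at an adjusted p under 0.05, 0 were lower, and 0.723% of the 14670 genes tested were higher by the same rule. All 6 members had every CA1 library above every CA3 library, which held for 0.518% of all genes. The median log2 difference was 1.04 over the 9 members and -0.01 over all genes.

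Among the transcription regulators, Pou3f1 had values of 234, 234 and 408 in untrained CA1 and 127, 190 and 169 in trained CA1, against 118 and 82.6 in untrained CA3 and 108, 116 and 94.7 in trained CA3. The lowest CA1 library lay above the highest CA3 library, with a log2 difference of 1.04 (standard error 0.204, limma adjusted p = 0.0309). Lmo4 and Neurod6 had no such pattern. Lmo4 ranged from 699 to 956 in CA1 (median 847) and from 862 to 1087 in CA3 (median 886), and its log2 difference was -0.12 (95% interval -0.24 to 0, adjusted p = 0.5 by limma). Neurod6 ranged from 940 to 1227 in CA1 (median 1085) and from 784 to 1563 in CA3 (median 1285), a log2 difference of -0.10 (95% interval -0.42 to 0.23, limma adjusted p = 0.9). The CA1 values of both genes lay within or beside the CA3 values, and Neurod6 turned to 0.10 when the animal untrained replicate 2 was left out.

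Of the signalling members, Nov had the largest difference from CA3. Its values were 362, 235 and 338 in untrained CA1 and 240, 178 and 186 in trained CA1, while those of CA3 were 86.5 and 49.0 in untrained and 100, 166 and 76.3 in trained libraries. No CA1 library reached down to the highest CA3 library, and the log2 difference was 1.53 (standard error 0.237, limma adjusted p = 0.0109), a 2.89-fold level. Gpr161 had values of 660, 607 and 971 in untrained CA1, 383, 440 and 434 in trained CA1, 233 and 168 in untrained CA3 and 204, 342 and 358 in trained CA3. The CA1 libraries were all higher, with a log2 difference of 1.19 (standard error 0.189, adjusted p = 0.0144 by limma). Fibcd1 did not pass the test. Its CA1 values were 1250, 921 and 1417 in untrained and 409, 504 and 502 in trained mice, against 361 and 323 in untrained CA3 and 210, 685 and 398 in trained CA3. CA3 trained replicate 2 exceeded all 3 trained CA1 libraries, and the difference of 1.03 had a 95% interval from 0.41 to 1.65 (limma adjusted p = 0.164).

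The enzymes and the endoplasmic reticulum protein all passed. Man1a was the member with the smallest p: its values were 528, 368 and 499 in untrained CA1, 299, 265 and 369 in trained CA1, 183 and 185 in untrained CA3 and 188, 239 and 219 in trained CA3. Its log2 difference was 0.92 (standard error 0.124, adjusted p = 0.00106 by limma), which ranked it 14 among all genes tested. Wfs1 had values of 746, 1009 and 1663 in untrained CA1 and 472, 619 and 681 in trained CA1, against 423 and 244 in untrained CA3 and 331, 286 and 305 in trained CA3, a difference of 1.33 (standard error 0.249, limma adjusted p = 0.0382). CA1 untrained replicate 3 held the highest Wfs1 value of all. Mpped1 had values of 1134, 914 and 1510 in untrained CA1, 520, 624 and 591 in trained CA1, 357 and 226 in untrained CA3 and 340, 497 and 426 in trained CA3. It was 1.25 higher in CA1 (standard error 0.175, limma adjusted p = 0.00796).

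The ratio of CA1 to CA3 can also be taken inside each animal, since 5 animals gave both libraries, although the CA3 library of untrained replicate 1 is the one whose Xist value was unlike that of its animal. Since no CA1 library of the 6 called members reached down to CA3, their ratios all exceed 1 by construction, and their medians ran from 1.53 for Mpped1 to 2.44 for Nov. Fibcd1 was higher in CA1 in 4 of 5 animals (3 of 4 without that pair), Lmo4 in 2 of 5 (2 of 4) and Neurod6 in 1 of 5 (0 of 4). With the animal as a block, 4 members and 1.41% of all genes in either direction were called, against 0.988% without it, since Pou3f1 (limma adjusted p = 0.0659) and Wfs1 (adjusted p = 0.0896) no longer passed. With the number of genes at 0 in each library as a covariate, 4 members were again called (0.770% of genes) and the same pair did not pass (0.0816 and 0.0783). Without CA3 untrained replicate 1 and DG trained replicate 3, 5 were called, with 0.863% of genes, and Wfs1 was not (limma adjusted p = 0.0652). Without CA1 trained replicate 1, 5 were again called (0.697% of genes) and Wfs1 was not (limma adjusted p = 0.058). The 6 choroid plexus markers moved with this comparison, with 1 higher in CA1, 5 above 0 and sums of 317 to 2456 in CA1 against 238 to 1156 in CA3, and their part was not tested. The count was 1 without trained replicate 3 (0.357% of genes), 3 without trained replicate 1 (1.09%) and 3 without untrained replicate 2 (0.490%). It was 4 to 6 without each of the other animals (0.418% to 1.23%). The Wfs1 call was lost under 9 of 18 alternatives (limma adjusted p up to 0.315) and the Pou3f1 call under 6 (up to 0.147). The Gpr161 call was lost under 3, the Nov call under 2, the Mpped1 call under 1 and the Man1a call under none. The log2 differences of the 6 members nevertheless stayed between 0.81 and 1.73 under all alternatives run.

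**Figure D2:**
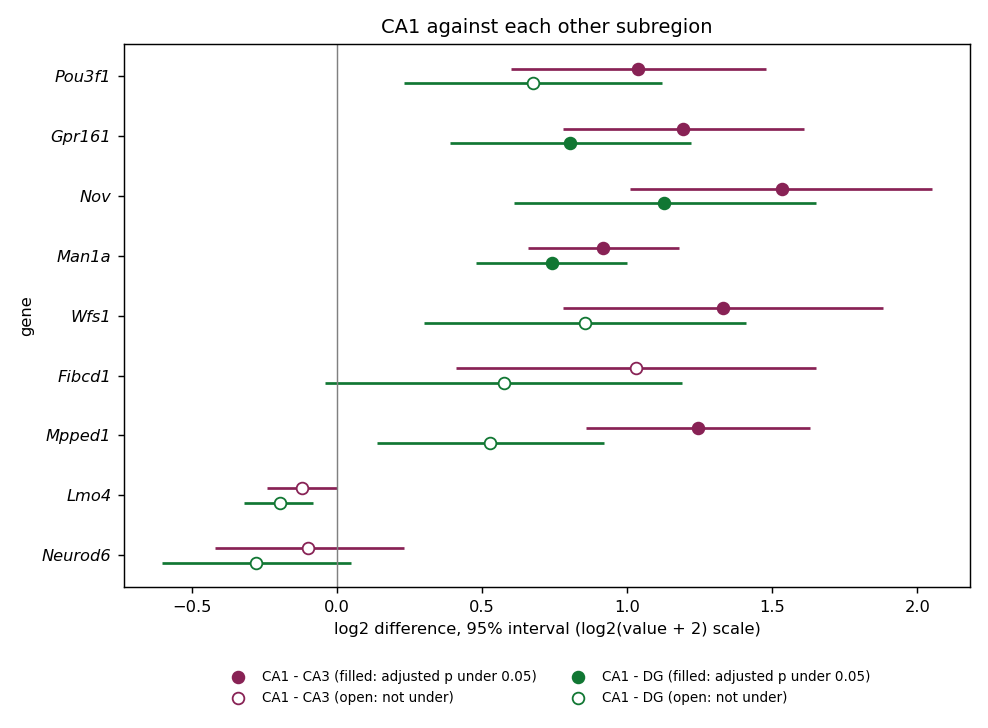
Log2 differences of each member between CA1 and CA3 and between CA1 and DG, on the log2(value + 2) scale, with 95% intervals from limma (filled points have an adjusted p under 0.05). Of 9 members 6 are filled against CA3 and 3 against DG, while Lmo4 and Neurod6 lie slightly below 0 in both.

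Against DG the differences were smaller for each of the 7 members above 0, although the tests of CA1 against CA3 and CA1 against DG share the CA1 libraries. Of 9 members 3 were higher in CA1 (Gpr161, Nov and Man1a) and 0 were lower, where 2.14% of all genes tested were higher. Nov had DG values of 69.4 and 124 in untrained and 136, 118 and 154 in trained mice, all below its lowest CA1 value of 178. It was the sole member without overlap, which held for 1.14% of genes, and its log2 difference was 1.13 (standard error 0.237, limma adjusted p = 0.0253). Man1a had DG values of 149 and 241 in untrained and 262, 256 and 278 in trained mice, so that CA1 trained replicate 2, at 265, fell among them. Its difference was 0.74 (standard error 0.124, adjusted p = 0.00404 by limma). Gpr161, with DG values of 356 and 252 in untrained and 313, 299 and 395 in trained mice, differed by 0.80 (standard error 0.189, limma adjusted p = 0.0423). Only DG trained replicate 3 reached above the lowest CA1 library. Within animals, Gpr161 and Man1a were higher in CA1 than in DG in 5 of 5 animals, and in 4 of 4 without the animal of DG trained replicate 3. Some markers of other tissue also differed between CA1 and DG. Of 4 endothelial markers 2 were higher (Cldn5 by 0.68 and Flt1 by 0.60), as was 1 of 6 markers of neocortex and subiculum (Fn1, 0.74). Of 5 meningeal markers 1 was higher (Col1a2, 0.70), but 2 of 5 lay above 0 and their median was -0.14. The endothelial markers summed to 579 to 677 in CA1 and 313 to 613 in DG. All 6 choroid plexus markers lay above 0 without passing, with a median log2 difference of 0.94 against 0.68 for the members, and summed to 317 to 2456 in CA1 and 295 to 410 in DG. Besides Grik4 and Cpne4, 1 of 8 interneuron markers was lower in CA1 (Npy, -0.38). The part of these markers in the differences of the members was not tested.

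Pou3f1, Wfs1, Fibcd1 and Mpped1 did not pass against DG. Pou3f1 was at 145 and 139 in untrained and 127, 83.6 and 176 in trained DG, a difference of 0.68 with a 95% interval from 0.23 to 1.12 (limma adjusted p = 0.0853). Wfs1 was at 385 and 558 in untrained and 554, 304 and 420 in trained DG. It differed by 0.85 (limma adjusted p = 0.0891). Fibcd1, at 406 to 679 in DG with a median of 476, differed by 0.58 (95% interval from limma -0.04 to 1.19, adjusted p = 0.295). Mpped1 ranged from 490 to 735 in DG with a median of 556 and differed by 0.53 (limma adjusted p = 0.128), but with the animal as a block its adjusted p was 0.0197. For each of these genes at least 1 trained CA1 library lay within the range of the DG libraries. Lmo4 was -0.20 (limma adjusted p = 0.0569) and Neurod6 -0.28 (adjusted p = 0.339 by limma) in CA1 relative to DG, and Neurod6 was higher in CA1 than in the animal's own DG in 0 of 5 animals (0 of 4 without DG trained replicate 3). Without robust variance estimation 6 members were called against DG, with 3.79% of all genes called in either direction, against 4.05% with it. The count was 1 without trained replicate 1 (2.59% of genes) or without trained replicate 3 (1.89%), and 2 without each of the other animals (0.775% to 2.98%). Without the library CA1 trained replicate 1 alone the count was also 1 (2.64% of genes). The Gpr161 call was lost under 10 of 18 alternatives (limma adjusted p up to 0.184), the Nov call under 4 (up to 0.124) and the Man1a call under none of them.

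No member separated CA3 from DG at the threshold. All 9 log2 differences of CA3 against DG were below 0, between -0.72 and -0.08, and 0 members passed the limma test, 1 with an unadjusted p under 0.05 (6.86% of all genes). In that comparison 1 gene of 14670 passed, 0.00682%. Mpped1, at 226 to 497 in CA3 and 490 to 735 in DG, had the largest difference, -0.72 (standard error 0.185, limma adjusted p = 0.534). The order of mean levels was therefore CA1, DG, CA3 for Pou3f1, Gpr161, Nov, Man1a, Wfs1, Fibcd1 and Mpped1, and DG, CA3, CA1 for Lmo4 and Neurod6, and for none of the 9 did the difference between DG and CA3 pass the test.

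The distance between CA1 and the other subregions was then taken separately in untrained and trained mice. In untrained mice 5 members were higher in CA1 than in CA3 (Pou3f1, Gpr161, Nov, Man1a and Mpped1), against 0.688% of all genes, and 7 had all 3 CA1 libraries above both CA3 libraries, as did 12.7% of all genes. Nov had a mean of 311 ± 67.2 (SD, n = 3) in untrained CA1 and 67.8 ± 26.5 (SD, n = 2) in untrained CA3, a log2 difference of 2.20 (limma adjusted p = 0.0124). Mpped1 had means of 1186 ± 301 and 292 ± 92.1, which differed by 2.02 (limma adjusted p = 0.00401). Against untrained DG, 4 members were higher (Gpr161, Nov, Man1a and Mpped1), where 1.73% of genes were. Lmo4 was lower by -0.35 (limma adjusted p = 0.0234), where 3.87% of genes were called in either direction. In trained mice the same contrasts gave smaller values for the 7 members other than Lmo4 and Neurod6. Against CA3, Lmo4 went from -0.216 in untrained to -0.021 in trained mice, and Neurod6 from 0.068 to -0.263. Between trained CA1 and trained CA3 the limma fit called 0 of 9 members and 0% of all genes as higher, 3 members having an unadjusted p under 0.05 (Nov, Man1a and Wfs1) where 8.02% of genes did, and 6 members had all 3 CA1 libraries above all 3 CA3 libraries where 5.97% of genes did. Their log2 differences ranged from 0.47 for Mpped1 to 0.92 for Wfs1. Between trained CA1 and trained DG 0 members passed by limma, 0 having an unadjusted p under 0.05 (17.9% of genes), and 1.27% of genes were higher. Without CA3 untrained replicate 1 and DG trained replicate 3, which leaves 1 untrained CA3 library that is assumed to vary like the other groups, 5 members and 0.363% of genes were higher in untrained CA1 than in CA3, and 5 members, with Pou3f1 added, and 1.29% of genes than in DG. In trained mice 0 members passed in either comparison, where 0% of genes were higher than in CA3 and 0.199% than in DG. Mpped1 had means of 578 ± 53.4 in trained CA1 and 594 ± 127 in trained DG (SD, n = 3 each). A change of these distances with training is tested directly by the interaction given further on.

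**Figure D3:**
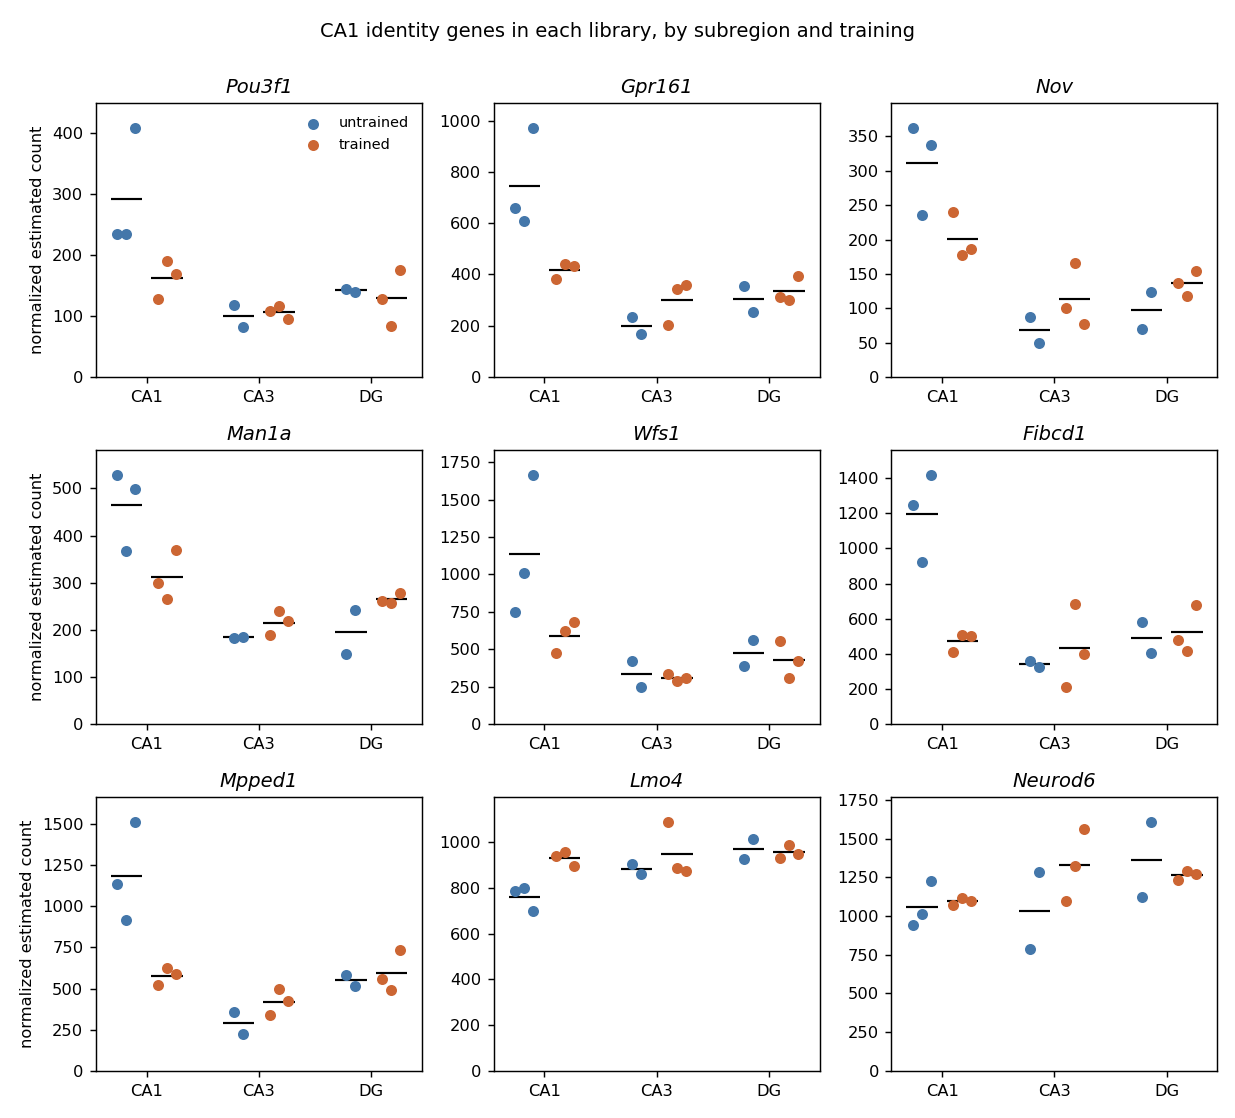
Normalized estimated counts of each member in each library, by subregion (blue untrained, orange trained, black bars the group means, axes from 0). In 7 panels the mean of untrained CA1 stands highest and that of trained CA1 lies nearer to CA3 and DG, and the Lmo4 and Neurod6 panels do not have this order.

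Training was compared within each subregion, CA1 first. By limma on the 6 CA1 libraries, 2 members were lower in trained mice (Fibcd1 and Nov) and 1 was higher (Lmo4), where 1.70% of 13585 genes tested were lower and 3.53% were higher. Fibcd1 had the largest difference. Its trained values of 409, 504 and 502 lay below the untrained values of 1250, 921 and 1417, with means of 472 ± 54.2 and 1196 ± 252 (SD, n = 3 each). The log2 difference was -1.32 (standard error 0.179, limma adjusted p = 0.0139), so that the trained level was 0.400 of the untrained level. Nov fell by 0.61 in log2 value (standard error 0.162, adjusted p = 0.0499 by limma), from 311 ± 67.2 to 201 ± 33.7 (SD, n = 3 each), with CA1 trained replicate 1, at 240, just above the lowest untrained value of 235. Lmo4 moved the other way. It was at 785, 798 and 699 in untrained and 939, 956 and 896 in trained CA1, and it rose by 0.29 (standard error 0.07, limma adjusted p = 0.0177), but after upper-quartile rescaling, which moved the median difference of all genes to -0.47, its difference was -0.19.

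A further 4 members, Pou3f1, Gpr161, Wfs1 and Mpped1, had all 3 trained CA1 libraries below all 3 untrained ones without passing the test. With Fibcd1 this made 5 of 9 members without overlap, where 11.1% of all genes tested were lower in this way. Mpped1 averaged 1186 ± 301 in the untrained and 578 ± 53.4 in the trained libraries (SD, n = 3 each), a difference of -1.01 (95% interval -1.53 to -0.48, limma adjusted p = 0.0662). Gpr161, with means of 419 ± 30.9 and 746 ± 197, differed by -0.80 (limma adjusted p = 0.0554). Wfs1 had means of 591 ± 108 and 1139 ± 472 and differed by -0.88 (95% interval -1.88 to 0.11, limma adjusted p = 0.312). Its untrained libraries spread widely, from 746 to 1663. Pou3f1 had means of 162 ± 32.1 and 292 ± 100, a difference of -0.81 (limma adjusted p = 0.159). Man1a, at 311 ± 52.6 and 465 ± 85.4, overlapped by a single pair of libraries (369 trained, 368 untrained) and differed by -0.57 (adjusted p = 0.0589 by limma). Neurod6 averaged 1094 ± 20.8 in the trained and 1059 ± 150 in the untrained libraries (difference 0.06, limma adjusted p = 0.767), a sign that turned to -0.42 after upper-quartile rescaling and to -0.03 without untrained replicate 1.

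How many of these differences passed depended on the fit and on individual libraries. The count was 8 without robust variance estimation (4.68% of all genes called in either direction, against 5.23% as first fitted), 6 without a filter on low values (8.25%) and 5 with genes kept only at a value of 10 or more in every library (5.85%). Without the filter 29.4% of the calls over all genes were higher in trained mice, against 67.5% with it. The count was 1 without trained replicate 2 (2.74% of genes) or without untrained replicate 1 (2.46%), 6 without untrained replicate 2 (3.60%) and 5 without untrained replicate 3 (6.46%). With all 16 libraries in the fit, Fibcd1 had a limma adjusted p of 0.0724, Nov of 0.309 and Mpped1 of 0.0366, and Fibcd1 had 0.0784 without trained replicate 3. The Nov call was lost under 6 of 15 alternatives and the Lmo4 call under 3 (up to 0.097 by limma), beside its change of sign after upper-quartile rescaling. The 7 members other than Lmo4 and Neurod6 stayed below 0 under every alternative run, between -1.80 and -0.47.

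Other measures separated the same 6 CA1 libraries. Xist was at 17310 to 19318 in trained and at 26.1 to 52.4 in untrained CA1, so training and the sex-linked transcripts cannot be told apart there, although the study assigned both sexes to each condition. The trained CA1 libraries listed 8323 to 9758 genes at 0 and the untrained ones 3124 to 5425. The 10 CA3 pyramidal markers summed to 4764 to 5149 in trained and 3320 to 3525 in untrained CA1, with 6 of 10 higher by limma and 1 lower. The 5 meningeal markers summed to 1061 to 1331 and 2045 to 2206, with 2 of 5 lower (Dcn and Ptgds), while the 10 dentate granule markers summed to 15148 to 15395 and 13005 to 15925, with 1 higher and 1 lower. Among markers of other cells, 3 of 4 general excitatory neuron markers were higher (Slc17a7, Camk2a and Nrgn) and 1 of 6 astrocyte markers was lower (Aqp4), and 0 of 8 interneuron, 0 of 6 oligodendrocyte, 0 of 6 microglial and 0 of 4 endothelial markers passed. All 5 choroid plexus markers tested lay below 0 (median -1.17, 0 passed), with sums of 2456, 317 and 317 in trained and 1035 to 1212 in untrained CA1. These marker counts are at the deposited scaling, and upper-quartile rescaling shifts all genes downward as given above for the median. The part of these measures in the differences of the members was not tested.

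In CA3 and DG no member passed the test between trained and untrained mice. In CA3, 0 of 9 members and 0.852% of 13845 genes passed by limma, with 0 members at an unadjusted p under 0.05 (15.8% of genes), and the log2 differences ran from -0.06 to 0.72. In DG, 0 of 9 members and 3.40% of 13932 genes passed, with 2 members at an unadjusted p under 0.05 (19.5% of genes), and the differences ran from -0.20 to 0.54. Man1a had all trained libraries above all untrained libraries in both subregions, by 0.22 in CA3 (adjusted p = 0.416 by limma, and -0.007 after upper-quartile rescaling) and by 0.48 in DG (adjusted p = 0.128). Such an order was common, at 17.2% of genes in CA3 and 17.4% in DG. The DG difference of Man1a passed without untrained replicate 3 (0.83, limma adjusted p = 0.000871), where 11.5% of all genes passed, against 3.40% with it. This left DG untrained replicate 1 as the only untrained sample and assumes that it varies like the other group. Other measures differed with training in these subregions too. In DG, Xist was at 25.5 and 52.2 in untrained and 7601 to 15810 in trained mice, so training and the sex-linked transcripts cannot be told apart there either, and 7567 to 8636 genes were at 0 in untrained and 3479 to 5944 in trained libraries. The order of genes at 0 was thus the reverse of that in CA1. The dentate granule markers summed to 16732 and 16901 in untrained and 13735 to 14492 in trained DG (2 of 10 lower by limma). The endothelial markers summed to 521 and 613 against 313 to 351 (1 of 4 lower). Also lower in trained DG were 2 of 6 CA2 markers, 1 of 4 thalamus markers tested and 1 of 4 excitatory neuron markers. In the same comparison 1 of 6 astrocyte markers was higher. In CA3, Xist was at 10587 and 28.6 in untrained and 12112 to 19592 in trained mice. Genes at 0 numbered 5659 and 3578 in untrained and 3171 to 8691 in trained CA3, so these ranges overlapped. The choroid plexus markers summed to 831 and 1156 in untrained and 238 to 334 in trained CA3 (2 of 6 lower by limma). The CA3 pyramidal markers summed to 3844 and 5476 in untrained and 5104 to 7760 in trained CA3 (1 of 10 higher by limma), and 1 of 8 interneuron markers was higher. The part of these measures in the differences of the members was not tested. With CA1, CA3 and DG in a combined fit with a term for the subregion, 0 of 9 members passed between trained and untrained mice, where 10.3% of 14670 genes did, and 1 member had an unadjusted p under 0.05 (25.5% of genes). The combined differences ran from -0.43 to 0.15. With the sex-linked transcripts as a covariate, 0 members and 0% of all genes passed. This covariate nearly repeats the training label. Xist was at 7601 to 19592 in trained libraries and, CA3 untrained replicate 1 apart, at 25.5 to 52.4 in untrained ones. The fit therefore cannot separate training from the sex-linked transcripts, and no conclusion is drawn from it.

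**Figure D4:**
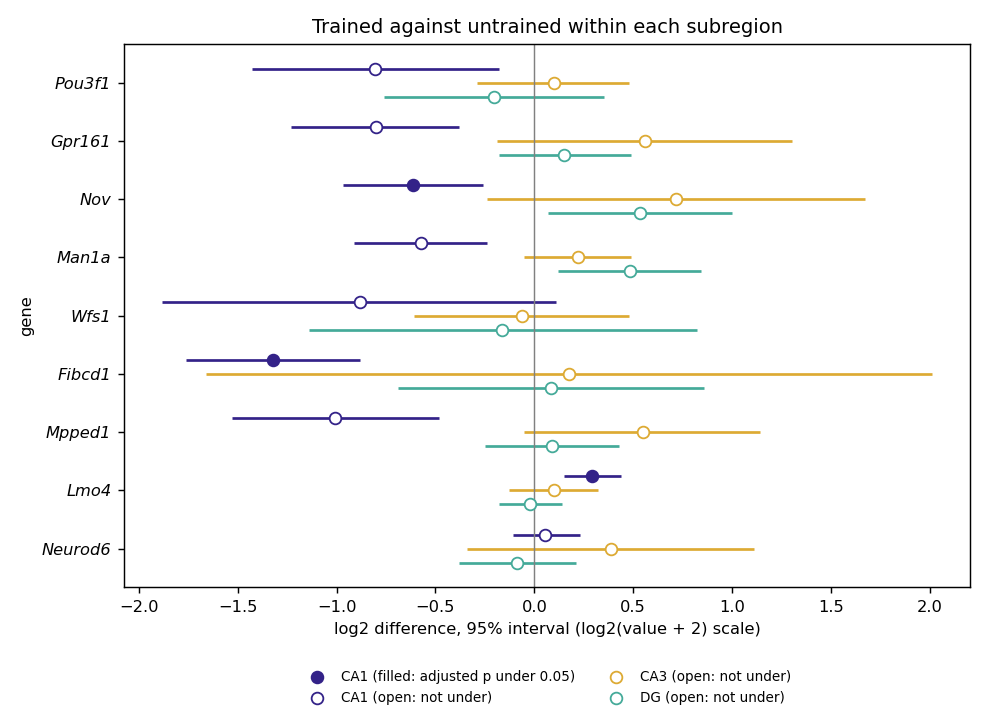
Log2 differences of each member between trained and untrained mice in CA1, CA3 and DG, on the log2(value + 2) scale, with 95% intervals from limma (filled points have an adjusted p under 0.05). In CA1 7 members lie below 0 and 3 points are filled, while no point is filled in CA3 or DG.

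Whether the training difference itself differed between subregions was tested as an interaction in the fit of 6 groups. Against DG, 1 of 9 members passed, where 1.55% of genes had a lower effect in CA1. Man1a was -0.57 in CA1 and 0.48 in DG, and the difference of these effects was -1.05 (standard error 0.247, limma adjusted p = 0.0323). It did not pass without any of the trained animals or without untrained replicate 1 (adjusted p from 0.0633 to 0.209), nor with the number of genes at 0 as a covariate (0.722), where 0% of all genes passed. It also did not pass without CA3 untrained replicate 1 and DG trained replicate 3 (0.11) or without CA1 trained replicate 1 alone (0.0652, where 1.89% of genes passed). Mpped1 differed by -1.10 (limma adjusted p = 0.129), and with the animal as a block its adjusted p was 0.0297. Fibcd1 differed by -1.40 (95% interval -2.64 to -0.17, limma adjusted p = 0.222). Against CA3, 0 of 9 members and 0.0273% of genes passed by limma, although 6 members had an unadjusted p under 0.05, where 6.71% of all genes did. All 6 were lower in CA1, and the largest was Mpped1, at -1.01 in CA1 and 0.55 in CA3, with a difference of -1.55 (95% interval -2.33 to -0.78, limma adjusted p = 0.288). Between CA3 and DG, 0 of 9 members and 0.130% of genes passed, and 0 members had an unadjusted p under 0.05 (11.7% of genes).

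The members varied together to different degrees. Over the 16 libraries, the 21 pairs among the 7 members other than Lmo4 and Neurod6 had Pearson correlations of log2 values from 0.72 to 0.95 (median 0.83). These libraries share animals, subregions and training, and with each group centred on its own mean the same pairs ran from 0.05 to 0.88 (median 0.36). Lmo4 correlated with the 7 at -0.81 to -0.48 and Neurod6 at -0.26 to -0.13, but centred on the group means these became -0.80 to 0.04 (median -0.28) and -0.16 to 0.43 (median 0.04). Without CA3 untrained replicate 1 and DG trained replicate 3 the 21 pairs ran from 0.73 to 0.96 over 14 libraries. The mean centred log2 value of all 9 members was 0.53 to 1.04 in untrained CA1, 0.02 to 0.19 in trained CA1, -0.76 to -0.09 in CA3 and -0.26 to 0.14 in DG.

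Of 14661 other genes, the 5 whose log2 values were most like this mean over the 16 libraries were Pex5l (r = 0.949), Ankrd63 (0.948), Plcl2 (0.941), Tmem200a (0.939) and Ptpru (0.924). Pex5l encodes an accessory subunit of HCN channels, Plcl2 a phospholipase C-like protein and Ptpru a receptor tyrosine phosphatase. Pex5l had a value of 1846 to 2728 in untrained CA1 and of 1040 to 1492 in all other libraries. Tmem200a lay at 207 to 287 in untrained CA1 and at 75.1 to 184 elsewhere. Plcl2 moved least, from 550 to 629 in untrained CA1 and from 457 to 572 elsewhere, and these ranges overlapped. Over the 14 libraries left without that pair, the 5 correlations ran from 0.928 to 0.959. These genes were picked for their likeness over the same libraries, so their levels are a description.

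A list of 9 further genes known from CA1 was followed in the same fits. Of these, 2 were higher in CA1 than in CA3 (Itpka and Tyro3) and 1 was higher than in DG (Tyro3), with 0 lower in either, where 0.723% and 2.14% of all genes were higher. Their median log2 difference was 0.24 against CA3 and 0.07 against DG. The largest differences from DG were those of Tyro3, a receptor tyrosine kinase, at 0.43 (adjusted p = 0.0135 by limma), and Ndst4, an enzyme of heparan sulfate synthesis, at 0.32 (limma adjusted p = 0.246). The lowest were those of Hpca, the calcium sensor hippocalcin, at -0.15 (limma adjusted p = 0.486), and Spink8, a protease inhibitor, at -0.11 (adjusted p = 0.957 by limma). Spink8 was hardly detected, at 3.32 to 71.8 in CA1. Between trained and untrained CA1, 1 of the 9 was lower, Tyro3 by -0.50 (limma adjusted p = 0.01), and 1, Zbtb20, was higher by 0.30 (limma adjusted p = 0.00933), where 1.70% of all genes were lower and 3.53% higher.

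Levels of different members can be set side by side only per length. Divided by the median length of the gene's coding transcripts in kb, the median CA1 level was 723 per kb for Mpped1, 591 for Lmo4 and 504 for Neurod6. The others followed at 202 for Wfs1, 150 for Fibcd1, 120 for Gpr161, 92.2 for Man1a and 82.8 for Nov, and Pou3f1 was lowest at 55.0. In CA3 and DG the order of the first 3 was Lmo4, Neurod6 and Mpped1, at 618, 598 and 335 per kb in CA3 and 661, 590 and 523 in DG. The Mpped1 level rests on 5 coding transcripts with a median of 1.06 kb. The CA1 order differed by training. In untrained CA1 Mpped1 was at 859 to 1420 per kb, above Lmo4 at 488 to 557, and in trained CA1 it was at 488 to 586, below Lmo4 at 626 to 668.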

How the data were processed

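The authors demultiplexed reads with bcl2fastq 2.20, aligned them with STAR and quantified genes with Salmon. The deposited signal per gene is an estimated count that the authors normalized between libraries (the processing notes name DESeq2 and GRCm38), and rescaling by median of ratios left it unchanged. Whole reads could not be recovered, so limma 3.58.1 in R 4.3.3 (trend, robust) was run on log2(value + 2) with Benjamini-Hochberg adjustment, two-sided, on genes with a value of at least 10 in 3 libraries (CA1) or 2 libraries (other fits). Fold changes on this scale understate those of low genes. Libraries with one replicate number and training label were taken as one animal, from the labels. Their deviations from group means correlated between -0.108 and 0.092. The fit with the animal as a block is an alternative. The script was tested on simulated data. The members, the gene lists and the genes named were chosen with earlier results of these data known. The rule for names took all 9 members, the 2 highest and 2 lowest of the further CA1 list against DG, and the 5 genes most like the members' mean. A gene first placed on the further CA1 list is not reported here. Other list genes were named after their values were seen. Positions and lengths are from GENCODE M21 (GRCm38) and promoters from RefSeq. Counting intervals are not given because the counts behind the values are unknown. P-values measure the spread between the libraries of a group. Within a subregion each library is another animal. In fits over several subregions, libraries of the same animal count as separate units except where the animal is a block.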

Additional observations from a re-analysis of the deposited data

Results flagged for a closer look

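Each member was examined in each subregion and training pattern for libraries far from the rest, in 27 groups of 5 or 6 libraries, a rule by which about 1 group in 20 stands out by chance. Man1a in DG untrained replicate 1 was at 149, against 241 to 278 in the other 4 DG libraries, a gap of 0.713 of the range where 0.71 is the limit. Lmo4 in CA3 trained replicate 1 was at 1087, against 862 to 903 in the other CA3 libraries, a gap of 0.82 of the range.

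The training effect on Man1a differed between CA1 and DG by -1.055 on the log2 scale (limma adjusted p = 0.0323). Without untrained replicate 1, the animal with this low DG value and with the highest Man1a value in CA1 (528), the difference was -0.61 (limma adjusted p = 0.209).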

How the results depend on the processing

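Counts of called members moved by over 1.5 times as follows, and the cause was not tested. Upper-quartile rescaling moved the median of all genes by up to -0.89 and gave 6 for CA1 against DG, 1 for CA3 against DG, 8 and 7 for training in CA1 and DG, and 3, 9 and 1 for the training effect in CA1 against CA3, CA1 against DG and CA3 against DG. In the same order, it called 0.776%, 0.107%, 69.4%, 42.8%, 0.268%, 74.2% and 23.8% of all genes. Relative to the median of -0.47 for training in CA1, Lmo4 (-0.186) stayed above and Neurod6 (-0.422) lay near it. Man1a in CA3 became -0.007. No robust estimation gave 6 for CA1 against DG, 8 for training in CA1 and 2 for the effect in CA1 against DG (3.79%, 4.68% and 2.34% of all genes). Training in CA1 gave 6 with no low-value filter (8.25%) and 5 when every library had to reach 10 (5.85%). With the replicate number as a block, training in CA1 gave 8 and in DG 1 (4.14% and 3.56%), although trained and untrained mice share only a number (correlations of deviations from -0.18 to 0.119). With the animal as a block, the effect in CA1 against DG gave 2 (1.90%). It gave 0 with genes at 0 as a covariate, where 0% of all genes passed, and 0 without CA3 untrained replicate 1 and DG trained replicate 3 (0.644%), an alternative chosen after seeing the data. Leaving out each animal in turn, or CA3 untrained replicate 1 or CA1 trained replicate 1 alone (also chosen after seeing the data), gave 1 to 6 for CA1 against CA3 (0.357% to 1.23% of all genes), 1 to 3 for CA1 against DG (0.775% to 4.09%), 1 to 6 for training in CA1 (2.46% to 6.46%), 0 to 1 in CA3 (0.0509% to 4.94%), 0 to 2 in DG (0.203% to 11.5%) and 0 to 1 for the effect in CA1 against DG (0.165% to 2.75%). Neurod6 then ran from -0.28 to 0.10 for CA1 against CA3 and from -0.025 to 0.167 for training in CA1. Of 773 values for 46 differences not given one by one, 68 took the other sign and 8 were called where the differences as first fitted were not. CA1 trained replicate 3 is the shallowest library, with the widest spacing of low values (3.13, against 0.515 to 2.59 in the others).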
